A study of Mus musculus with 21 samples.

Results

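The 10 genes described here are *Mpo*, *Elane*, *Prtn3*, *Ctsg*, *Cebpa*, *Cebpb*, *Csf1r*, *Fcgr3*, *Lyz2* and *Plac8*. They were picked by symbol as genes of the myeloid lineage, 10 rows of a table of 55421 genes. Granulocytes and monocytes arise from progenitors in which the transcription factors PU.1 and C/EBPα set up the myeloid program. Azurophil granules, which form early in granulocyte development, hold myeloperoxidase and the serine proteases neutrophil elastase, proteinase 3 and cathepsin G. Receptors for growth factors and for antibody, and lysozyme, mark the maturing cells, and early progenitors of both the myeloid and the lymphoid branch can carry low amounts of such transcripts.

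The cells were lymphoid progenitors (LPs) of an *Ebf1*-deficient mouse line (strain C57BL6/J), held on OP9 stroma with SCF, IL-7 and Flt3L and not exposed to Notch ligand. LPs that carried Cas9-GFP received retroviral single-guide RNAs (sgRNAs), 2 vectors pooled per gene. They targeted *Lmo2* (sgLmo2), *Zbtb1* (sgZbtb1), *Cbfa2t2* (sgCbfa2t2), *Cbfa2t3* (sgCbfa2t3) or luciferase, which LPs lack (sgControl), and cells positive for GFP and for the hNGFR marker of the sgRNA vector were sorted 5 days later for QuantSeq 3′ mRNA sequencing, with 3 libraries in each of the 5 conditions. Zbtb1 and Cbfa2t3 binding was measured by ChIP-seq in LPs of the same line without sgRNA, and each factor has 1 list of peaks made from 2 replicates. The question put to these data is whether the genes of the alternative, myeloid fate differ in level when a factor of the Lmo2 complex is targeted, and whether Zbtb1 or Cbfa2t3 has peaks at them.

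All libraries come from 1 line, so the spread between replicates is that between cultures. They held 1705416 to 2095447 reads in genes, and a level is given in reads per 1000000 (CPM), so that 3 reads, the floor used here, are worth 1.43 to 1.76 CPM. QuantSeq reads come from the 3′ end of a transcript and are not divided by its length, so levels of different genes count 3′ ends. No targeted gene passed the test as lower in its own group: *Zbtb1* was higher in the libraries labelled sgZbtb1 (log2 difference 0.77, adjusted p = 0.00102) and *Cbfa2t3* in those labelled sgCbfa2t3 (0.88, adjusted p = 1.67e-07), while *Lmo2* (mean 16.3 CPM against 18.4 CPM in sgControl) and *Cbfa2t2* (21.9 against 11.8 CPM) did not pass the test in theirs. *Ebf1* mRNA was present at 209 to 366 CPM in all 15 libraries. These are counts of 3′ ends, which measure neither an edit in a gene nor the amount of its protein. Groups are named by their labels, and every direction given below is that of the libraries so labelled. Of 12 genes of lymphoid progenitors the highest were *Ptprc*, which encodes the leukocyte antigen CD45 (mean 431 CPM over the 15 libraries), *Ikzf1* (419.8 CPM) and the Flt3L receptor *Flt3* (233 CPM), none of them restricted to lymphoid cells, followed by *Il7r* (159 CPM) and *Dntt* (86.4 CPM). The recombinase genes *Rag1* (2.07 CPM) and *Rag2* (2.91 CPM) and the B-lineage genes *Vpreb1* (1.29 CPM), *Cd79b* (0.452 CPM), *Igll1* (0.203 CPM) and *Cd79a* (0 CPM) were near or at 0. Of other cell types, 7 of 7 mast cell and basophil genes were at 0 in all libraries, 0 of 8 erythroid and megakaryocyte genes reached a mean of 1 CPM, and 1 of 10 genes of the OP9 stroma did (*Pdgfrb*, 5.64 CPM).

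The 10 genes covered the whole range from no read to 1 of the most abundant mRNAs of these cells. *Plac8* had a mean of 2133 CPM over the 15 libraries, rank 28 of all genes, and *Fcgr3* had 66.9 CPM. *Cebpb* (12.5 CPM), *Cebpa* (9.87 CPM), *Mpo* (5.47 CPM) and *Prtn3* (3.72 CPM) were low, with 102 to 354 reads each over all libraries. *Csf1r* (13 reads), *Lyz2* (8 reads), *Ctsg* (1 read) and *Elane* (0 reads) had a mean under 1 CPM and were not tested. The 6 genes above that mean entered a limma fit of log2(CPM + 1) with 11554 genes in all.

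**Figure D1:**
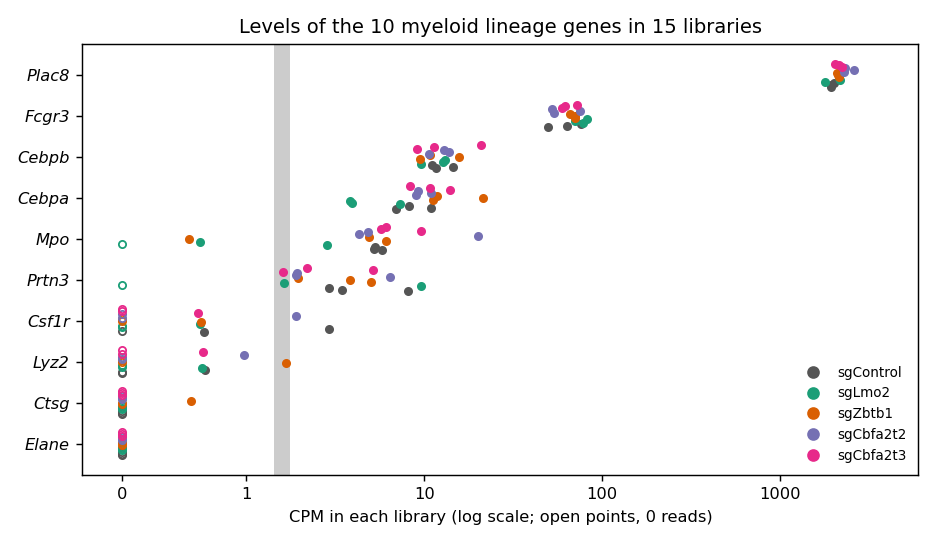
CPM of each of the 10 genes (rows, ordered by mean) in each of the 15 libraries on a logarithmic axis, with open points at 0 for libraries without a read and a grey band for the value of 3 reads. *Plac8* lies between 1791 and 2614 CPM in every library, and *Elane* has no read in any.

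Against sgControl, 1 of the 6 tested genes was called (adjusted p under 0.05) in 1 of the 4 comparisons. *Plac8* was higher in the libraries labelled sgCbfa2t2 (0.147% of all 11554 genes were called in that comparison, 0.0260% as higher). In such bulk libraries, fewer cells that express a gene and less of its RNA per cell cannot be told apart. By limma with Benjamini-Hochberg adjustment over all genes, 0 of 6 were called for sgLmo2 (background 0.0173%), 0 of 6 for sgZbtb1 (background 4.79%) and 0 of 6 for sgCbfa2t3 (background 0.537%). At an unadjusted p under 0.05 the counts were 1 (*Mpo*), 0 and 0, beside 5.65%, 17.6% and 10.6% of all genes. edgeR and DESeq2 on the recovered reads called 0 in each of these 3 comparisons, although for sgCbfa2t3 DESeq2 gave an adjusted p for 2 of the 6 only (*Plac8* and *Fcgr3*). The median log2 difference of the 6 genes was -0.39 for sgLmo2, 0.03 for sgZbtb1, 0.09 for sgCbfa2t2 and 0.10 for sgCbfa2t3, while the median of all genes stayed between -0.028 and 0.013. These 4 comparisons share the sgControl libraries. An F test over the 5 conditions called *Mpo* (adjusted p = 0.0145) and *Plac8* (adjusted p = 0.0327), 2 of 6 genes beside 4.54% of all genes. Of 36 contrasts between groups with a targeted gene (6 genes in 6 pairs), 3 were called: *Mpo* was lower in the libraries labelled sgLmo2 than in those labelled sgCbfa2t2 and sgCbfa2t3, and *Cebpa* was lower in the libraries labelled sgLmo2 than in those labelled sgZbtb1. The background in these 3 contrasts was 0.234%, 0.736% and 5.06%, and in the 3 pairs without a called member it was 2.27% (sgCbfa2t2 and sgZbtb1), 0.0779% (sgCbfa2t3 and sgCbfa2t2) and 1.13% (sgCbfa2t3 and sgZbtb1).

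**Figure D2:**
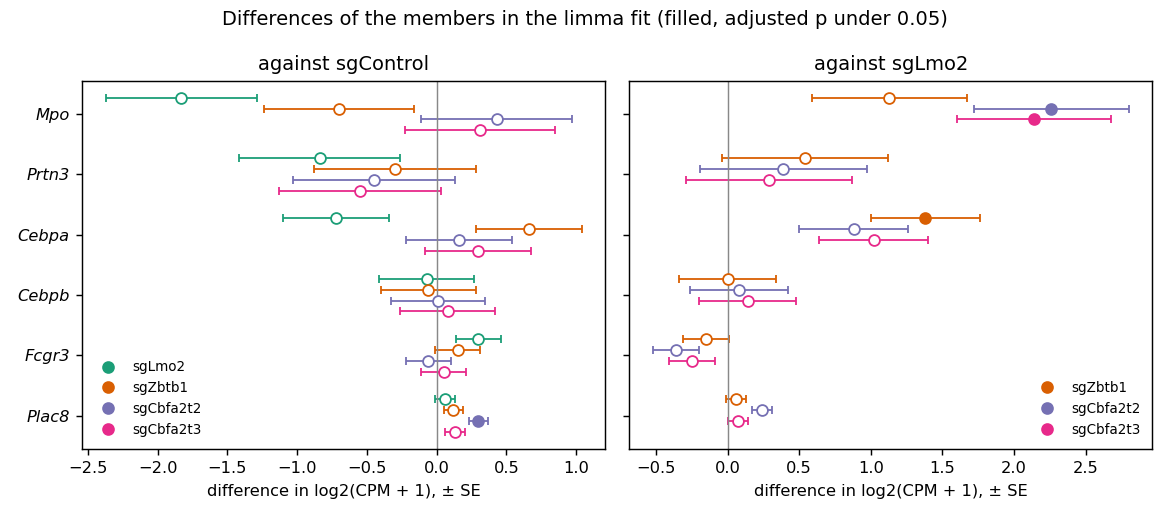
Differences of the 6 tested genes in log2(CPM + 1) with their standard errors, against sgControl (left) and against sgLmo2 (right), with filled points at an adjusted p under 0.05. Filled points are *Plac8* for sgCbfa2t2 on the left, at 0.30, and *Mpo* at 2.26 and 2.14 and *Cebpa* at 1.38 on the right.

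*Mpo* encodes myeloperoxidase, the enzyme that makes hypochlorous acid in the granules of neutrophils. Its level was 5.81, 5.21 and 5.28 CPM in sgControl, from 10, 9 and 9 reads. It was 2.83, 0 and 0.547 CPM in the libraries labelled sgLmo2, from 5, 0 and 1 reads. All 3 sgLmo2 libraries lay below all 3 of sgControl, as did 4.97% of all genes. The difference was -1.83 ± 0.54 (log2, SE, n = 3 each), with an unadjusted p of 0.00127 in the limma fit and an adjusted p of 0.669, and it did not pass the test. In the libraries labelled sgZbtb1 the level was 6.14, 0.478 and 4.91 CPM, so that 1 library with 1 read stood below the others. In those labelled sgCbfa2t2 it was 20.2, 4.29 and 4.83 CPM, where replicate 1 with 38 reads held the highest value of all 15 libraries. In those labelled sgCbfa2t3 it was 9.65, 5.71 and 6.09 CPM. The last 2 groups overlapped with sgControl and lay above sgLmo2 without overlap, as did 5.42% and 5.95% of all genes.

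The order of the group means of *Mpo* was sgCbfa2t2 (9.78 ± 9.05 CPM, SD, n = 3), sgCbfa2t3 (7.15 ± 2.17), sgControl (5.43 ± 0.327), sgZbtb1 (3.84 ± 2.98) and sgLmo2 (1.12 ± 1.5), and each neighbour in this order overlapped with the next. The difference between sgCbfa2t2 and sgLmo2 was 2.26 ± 0.54 (log2, SE; limma adjusted p = 0.0428), and that between sgCbfa2t3 and sgLmo2 was 2.14 ± 0.54 (limma adjusted p = 0.0341). Both rest on few reads, and their size depends on the pseudocount: with 0.1 in place of 1 they were 3.73 and 3.62, and the difference of sgLmo2 from sgControl was -3.27. The first was not called without sgLmo2 replicate 2 (1.84, adjusted p = 0.375), sgLmo2 replicate 3 (2.15, adjusted p = 0.240) or sgCbfa2t2 replicate 1 (1.62, adjusted p = 0.598), and the second was not called by edgeR (adjusted p = 0.0810), without sgLmo2 replicate 2 or 3, or without any of the sgCbfa2t3 libraries (adjusted p of 0.0701 to 0.290). Neither was called when genes were not filtered by their mean. The gene lies at chr11:87793581-87804413 (mm10, plus strand), and the predicted gene *Gm11505* overlaps it on the other strand. No peak of either list was assigned to *Mpo*. The nearest was a Cbfa2t3 peak 38.1 kb upstream of its start (score 50.4), and both factors had overlapping peaks 43.9 kb and 41.8 kb upstream, all of which the lists assign to *Mir142*.

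*Prtn3* encodes proteinase 3, a serine protease of the same granules. Its level was 8.13, 3.47 and 2.93 CPM in sgControl. It was 9.61, 0 and 1.64 CPM in the libraries labelled sgLmo2, from 17, 0 and 3 reads, so that these hold both the highest and the lowest value of all 15. It was 5.03, 3.82 and 1.96 CPM in the libraries labelled sgZbtb1. The libraries labelled sgCbfa2t2 had 6.39, 1.91 and 1.93 CPM, and those labelled sgCbfa2t3 had 1.61, 5.14 and 2.21 CPM. All 5 groups overlapped, their means ran from 2.99 ± 1.89 CPM (sgCbfa2t3, SD, n = 3) to 4.84 ± 2.86 CPM (sgControl), and the F test gave an adjusted p of 0.868.

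*Prtn3* lies at chr10:79874476-79883174 (mm10, plus strand), where *Plppr3* overlaps it on the other strand. It was the nearest gene of 1 Zbtb1 peak (score 23.7, which 39.0% of the Zbtb1 peaks did not exceed) and of 1 Cbfa2t3 peak (score 21.7, at the 7.52nd percentile of its list). The score is HOMER's normalized number of reads in the peak. These peaks do not overlap: the Cbfa2t3 peak lies in an intron of *Prtn3*, 3.5 kb downstream of the start that GENCODE vM21 gives, and the Zbtb1 peak 6.9 kb downstream of it, in a stretch that touches a coding exon. The 300 bases at the centre of each are shown because *Prtn3* was the granule gene with peaks of both factors. Capitals mark every match, on either strand, to TGTGGT (the core of the Runx motif), CAGCTG (an E-box), TGGTGGT (the core of the Zbtb7c motif), TTGCNNAA (the C/EBP palindrome), GAGGAAG (an ETS core as bound by PU.1) or AGATAA (the GATA core), of which TGTGGT and TGGTGGT can share letters.
Prtn3, Cbfa2t3 peak, chr10:79877851-79878150, forward strand: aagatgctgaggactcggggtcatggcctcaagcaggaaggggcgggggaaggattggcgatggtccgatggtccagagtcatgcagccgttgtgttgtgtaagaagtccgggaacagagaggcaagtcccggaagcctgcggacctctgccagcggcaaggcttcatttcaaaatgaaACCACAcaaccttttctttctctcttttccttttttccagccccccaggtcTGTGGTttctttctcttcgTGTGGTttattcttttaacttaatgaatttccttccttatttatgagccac
Prtn3, Zbtb1 peak, chr10:79881190-79881489, forward strand: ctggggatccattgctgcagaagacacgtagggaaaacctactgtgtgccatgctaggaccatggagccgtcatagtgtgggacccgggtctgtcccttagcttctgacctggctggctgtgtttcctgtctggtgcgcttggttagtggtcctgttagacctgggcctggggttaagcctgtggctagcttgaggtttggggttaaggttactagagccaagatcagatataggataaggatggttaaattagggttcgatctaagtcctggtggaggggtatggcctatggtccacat
The Cbfa2t3 peak held 3 copies of TGTGGT or its complement ACCACA, a motif that 52.8% of the Cbfa2t3 peaks hold, and the Zbtb1 peak held none of the 6 motifs.

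*Elane* and *Ctsg*, the genes of neutrophil elastase and cathepsin G, were almost without reads. *Elane* had 0 reads in all 15 libraries, which allows up to 1.43 to 1.76 CPM in a library, counting error only. *Ctsg* had 1 read, in 1 library labelled sgZbtb1. Neither gene was the nearest gene of a peak. *Elane* lies next to *Prtn3* at chr10:79886247-79888215 (mm10, plus strand), so that the Zbtb1 and Cbfa2t3 peaks of *Prtn3* are 4.9 kb and 8.2 kb upstream of the *Elane* start. No peak of either list was within 100 kb of the *Ctsg* start.

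*Cebpa* encodes C/EBPα, the factor required to make granulocyte and monocyte progenitors. Its level was 6.97, 11.0 and 8.21 CPM in sgControl. It was 11.2, 21.5 and 11.8 CPM in the libraries labelled sgZbtb1, all above sgControl, as for 10.1% of all genes. It was 7.35, 3.91 and 3.83 CPM in the libraries labelled sgLmo2, of which 2 lay below every other library. The libraries labelled sgCbfa2t2 had 9.05, 11.0 and 9.18 CPM, and those labelled sgCbfa2t3 had 13.9, 10.8 and 8.31 CPM. Neither of these groups was separated from sgControl.

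Against sgControl the difference of *Cebpa* was 0.66 ± 0.38 (log2, SE, n = 3 each) for sgZbtb1, with a limma adjusted p of 0.374 (0.38 without sgZbtb1 replicate 2), and -0.72 ± 0.38 for sgLmo2, with a limma adjusted p of 0.883. Neither passed the test. The libraries labelled sgZbtb1 and sgLmo2 differed from each other by 1.38 ± 0.38 (limma adjusted p = 0.0171, edgeR adjusted p = 0.0104), with group means of 14.8 ± 5.80 and 5.03 ± 2.01 CPM (SD, n = 3) and no overlap (9.12% of all genes were higher without overlap). The call ended without sgZbtb1 replicate 2 (1.1, adjusted p = 0.163), sgLmo2 replicate 2 (1.26, adjusted p = 0.0853) or sgLmo2 replicate 3 (1.25, adjusted p = 0.0956). It also ended when genes were not filtered by their mean. The order of the means was sgZbtb1, sgCbfa2t3 (11.0 CPM), sgCbfa2t2 (9.73 CPM), sgControl (8.72 CPM) and sgLmo2, with overlap between all neighbours. Genes of the OP9 stroma summed to 1.96 to 6.14 CPM in the libraries labelled sgZbtb1 and to 6.57 to 13.7 CPM in those labelled sgLmo2. Most of this was *Pdgfrb* (means of 2.70 and 7.02 CPM), *Col3a1*, *Dcn*, *Lum* and *Postn* were at 0 in all libraries, and the cells had been sorted for GFP and hNGFR, the markers of the transduced LPs. The part of stroma in the *Cebpa* difference was not tested.

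*Cebpb* encodes C/EBPβ, which acts in monocytes and in granulocyte production under cytokine stimulation. Its level was 11.6, 14.5 and 11.1 CPM in sgControl and between 9.11 and 21 CPM in the other 12 libraries. The highest, 21 CPM, was 1 library labelled sgCbfa2t3, whose other 2 libraries had 9.11 and 11.4 CPM. The group means, in order, were sgCbfa2t3 (13.9 ± 6.33 CPM, SD, n = 3), sgCbfa2t2 (12.5 ± 1.66), sgControl (12.4 ± 1.80), sgZbtb1 (12 ± 3.31) and sgLmo2 (11.8 ± 1.93). All groups overlapped, the 4 differences from sgControl ran from -0.07 to 0.08 (log2), each with an SE of 0.34, and the F test gave an adjusted p of 0.997.

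Both C/EBP genes carried a Zbtb1 peak over their coding sequence, and these were the strongest Zbtb1 peaks assigned to any of the 10 genes. That of *Cebpb* (chr2:167688915-167690418, plus strand) had a score of 40.6 at the 68.0th percentile of 5898 Zbtb1 peaks, centred 398 bases after the start the list uses. That of *Cebpa* (chr7:35119293-35121928, plus strand) had a score of 37.3 at the 64.1st percentile, centred 729 bases after the start. Both genes have 1 exon in the models the list uses. The 300 bases at each centre are shown because they lie inside the protein-coding part.
Cebpa, Zbtb1 peak, chr7:35119873-35120172, forward strand: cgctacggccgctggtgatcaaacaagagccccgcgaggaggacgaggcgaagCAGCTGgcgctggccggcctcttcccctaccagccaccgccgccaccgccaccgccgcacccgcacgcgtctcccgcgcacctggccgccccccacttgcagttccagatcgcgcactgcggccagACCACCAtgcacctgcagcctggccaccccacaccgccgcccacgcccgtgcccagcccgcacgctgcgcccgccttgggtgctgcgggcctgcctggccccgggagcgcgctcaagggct
Cebpb, Zbtb1 peak, chr2:167689164-167689463, forward strand: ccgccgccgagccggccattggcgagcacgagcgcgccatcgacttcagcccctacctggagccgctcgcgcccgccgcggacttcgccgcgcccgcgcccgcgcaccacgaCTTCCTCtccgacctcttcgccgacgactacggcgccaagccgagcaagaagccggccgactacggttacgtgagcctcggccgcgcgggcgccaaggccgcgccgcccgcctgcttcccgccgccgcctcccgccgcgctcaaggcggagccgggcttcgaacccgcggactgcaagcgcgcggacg
Over the whole peaks, G and C made up 76.0% of the bases at *Cebpa* and 77.9% at *Cebpb*, above 91.0% and 94.6% of the Zbtb1 peaks, whose median was 58.2%. The *Cebpa* peak held 1 CAGCTG (in 24.1% of the Zbtb1 peaks) and 1 ACCACCA, the complement of TGGTGGT (in 18.5%). The *Cebpb* peak held 1 CTTCCTC, the complement of GAGGAAG (in 19.1%). Neither had a Cbfa2t3 peak assigned to it, although a Cbfa2t3 peak with a score of 30.9 lay 1.1 kb after the *Cebpb* start and is given to the non-coding gene *A530013C23Rik*. *Tmem189* spans *Cebpb* on the other strand and *Gm45091* overlaps *Cebpa* on the other strand, and whether counting used the strand is not stated.

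*Fcgr3* encodes the low-affinity IgG receptor FcγRIII of macrophages, neutrophils and natural killer cells, and was the receptor gene with a clear level. It stood at 49.4, 63.7 and 76.2 CPM in sgControl. The libraries labelled sgLmo2 had 78.6, 70.4 and 82.2 CPM, those labelled sgZbtb1 had 70.4, 70.8 and 66.3 CPM, those labelled sgCbfa2t2 had 53.8, 75.4 and 52.2 CPM, and those labelled sgCbfa2t3 had 59.5, 62.2 and 72.0 CPM. The spread within sgControl, 63.1 ± 13.4 CPM (SD, n = 3), covered most of the other libraries. The means were ordered sgLmo2 (77.1 ± 6.04), sgZbtb1 (69.1 ± 2.48), sgCbfa2t3 (64.6 ± 6.57), sgControl and sgCbfa2t2 (60.4 ± 13.0), and all neighbours overlapped. The largest difference from sgControl was that of sgLmo2, 0.30 ± 0.16 (log2, SE; limma adjusted p = 0.883), which became 0.14 without sgControl replicate 1 and 0.45 without sgControl replicate 3. No peak was assigned to *Fcgr3* (chr1:171051174-171064935, minus strand), but a Zbtb1 peak with a score of 55.1 was centred 0.1 kb after its start and is given in the list to *Mir6546*, which overlaps the gene on the same strand.

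*Csf1r* encodes the receptor for the macrophage growth factor CSF1. It had 6 reads in sgControl, 4 in the libraries labelled sgCbfa2t2 and 1 in each of the other 3 groups. In 9 of 15 libraries it had no read, and 2 libraries exceeded the floor of 3 reads: sgControl replicate 3 with 5 reads (2.93 CPM) and sgCbfa2t2 replicate 2 with 4 reads (1.91 CPM). No difference between groups could be measured at this depth. *Csf1r* nonetheless was the nearest gene of the strongest of the 9 peaks, a Cbfa2t3 peak with a score of 80.1 at the 87.9th percentile of 6077. A Zbtb1 peak with a score of 30.5 overlapped it by 370 bases. Both lie between genes, 9.3 kb upstream of the GENCODE start, and hold 1 TGTGGT and 2 CAGCTG, which 52.8% and 54.9% of the Cbfa2t3 peaks and 46.7% and 24.1% of the Zbtb1 peaks hold.

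*Plac8*, a cysteine-rich protein first found in placenta and abundant in early myeloid and lymphoid progenitors, was the only one of the 6 tested genes called against sgControl. Its level was 1923, 1924 and 2013 CPM in sgControl, from 3311 to 3433 reads. It was 2279.9, 2614 and 2315 CPM in the libraries labelled sgCbfa2t2, above all other libraries. It was 2234, 2149.7 and 2048 CPM in those labelled sgCbfa2t3 and 2145, 2128 and 2101 CPM in those labelled sgZbtb1. Both of these groups lay above sgControl without overlap, as did 6.70% and 10.1% of all genes. The libraries labelled sgLmo2 had 1791, 2188 and 2148 CPM and overlapped with sgControl.

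The difference of *Plac8* between sgCbfa2t2 and sgControl was 0.30 ± 0.07 (log2, SE, n = 3 each), 1.23-fold, with a limma adjusted p of 0.0447, and replicate groups did not overlap (6.88% of all genes were higher without overlap). By the exact two-sided permutation test over these libraries p was 0.1, the smallest that 3 against 3 libraries can give. edgeR (adjusted p = 0.0359) and DESeq2 (adjusted p = 0.0109) called it as well. The limma call was lost with a pseudocount of 0.1 (adjusted p = 0.0598), no filter (0.344), median-of-ratios scaling (0.0728) or the 6 libraries alone (0.0594), and also without any of the sgControl libraries (adjusted p of 0.13 to 0.244) and without sgCbfa2t2 replicate 2 (0.23, adjusted p = 0.479). The differences were 0.13 ± 0.07 for sgCbfa2t3 (adjusted p = 0.497), 0.12 ± 0.07 for sgZbtb1 (adjusted p = 0.375) and 0.06 ± 0.07 for sgLmo2 (adjusted p = 0.954), and the contrasts of sgCbfa2t2 with each of the other 3 targeted groups did not pass the limma test (adjusted p of 0.221 to 0.713). The means were ordered sgCbfa2t2 (2403 ± 183 CPM, SD, n = 3), sgCbfa2t3 (2144 ± 92.7), sgZbtb1 (2124 ± 22.3), sgLmo2 (2043 ± 219) and sgControl (1953 ± 51.6), and the first step of this order was the only one without overlap (as for 5.73% of all genes). The 3 sgControl libraries were also the 3 with the fewest reads in genes (1705416 to 1727730), and the part of depth in the *Plac8* difference was not tested.

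*Plac8* (chr5:100553725-100572245, minus strand) was the nearest gene of 1 Zbtb1 and 2 Cbfa2t3 peaks, all between genes and upstream of its start. A Zbtb1 peak with a score of 18.2 (18.1st percentile) and a Cbfa2t3 peak with a score of 30.0 (41.7th percentile) overlapped by 351 bases, with centres 13.1 kb and 13.0 kb upstream of the GENCODE start, and the other Cbfa2t3 peak, with a score of 22.8, lay 10.4 kb upstream. The 300 bases at the centre of the shared Cbfa2t3 peak are shown because they are bound in both lists at the gene called against sgControl.
Plac8, peak of both lists, chr5:100585143-100585442, forward strand: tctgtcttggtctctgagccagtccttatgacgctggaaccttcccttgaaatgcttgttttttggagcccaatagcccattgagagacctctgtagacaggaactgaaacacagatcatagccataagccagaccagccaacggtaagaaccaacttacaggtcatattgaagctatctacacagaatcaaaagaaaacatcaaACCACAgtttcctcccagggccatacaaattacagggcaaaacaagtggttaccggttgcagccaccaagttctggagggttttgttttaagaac
They hold 1 ACCACA, the complement of the Runx core TGTGGT. The lists place both shared peaks in a repeat, an MLT1G element of the ERVL-MaLR class. A TTGCNNAA in the Zbtb1 peak (in 9.44% of its list) falls outside the printed stretch.

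**Figure D3:**
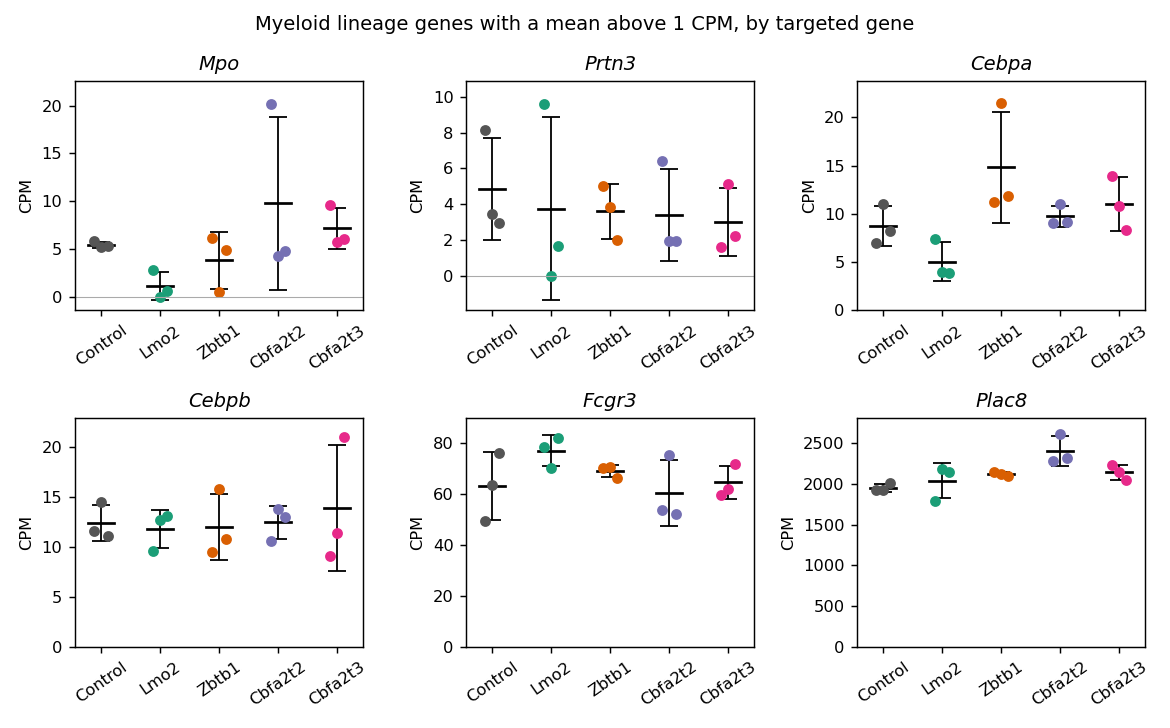
CPM of the 6 tested genes by targeted gene, each library as a point with the group mean and SD as lines. *Plac8* in the 3 libraries labelled sgCbfa2t2 lies above all others, and *Mpo* in the 3 labelled sgLmo2 lies below sgControl.

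*Lyz2*, the lysozyme of macrophages and neutrophils, had 8 reads in all 15 libraries and at most 3 reads in any (1.68 CPM, in 1 library labelled sgZbtb1). In 10 of 15 libraries it had none. Its near-identical neighbour *Lyz1* had none in any library, and reads shared by the pair could have been left out in counting. No peak was assigned to *Lyz2*, and the nearest, of Cbfa2t3, was 66.1 kb from its start.

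Together 9 peaks were assigned to the 10 genes. Zbtb1 had peaks at 5 of them (*Cebpa*, *Cebpb*, *Csf1r*, *Plac8* and *Prtn3*), and of the 6 genes in the fit 4 had one, beside 26.8% of all genes in the fit. Cbfa2t3 had peaks at 3 (*Csf1r*, *Plac8* and *Prtn3*), and of the 6 in the fit 2, beside 20.5%. The same 3 had peaks of both, and of the 6 in the fit 2, beside 11.3%, but the 2 factors shared a place, by at least 1 base, at *Csf1r* and *Plac8* only. With a score of at least 30 the counts over the 10 were 3 genes for Zbtb1 (*Cebpa*, *Cebpb* and *Csf1r*) and 2 for Cbfa2t3 (*Csf1r* and *Plac8*). The shares of the genes in the fit, which do not include *Csf1r*, were 14.3% and 12.8%. Within 10 kb of the start in the list the counts were 3 and 1, all in the fit (21.8% and 12.6%). Within 100 kb of the start, whatever gene the lists name, 9 of the 10 genes had a peak, and of the 6 in the fit 6, beside 79.9% of all genes in the fit. Of the 4 genes in the fit with a peak, *Plac8* was called against sgControl and *Cebpa* between 2 targeted groups, and *Cebpb* and *Prtn3* were called in no comparison. Of the 2 without one, *Mpo* was called over the 5 conditions and in 2 pairs, and *Fcgr3* in no comparison. The lists carry no values per replicate, and no test was made on them.

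**Figure D4:**
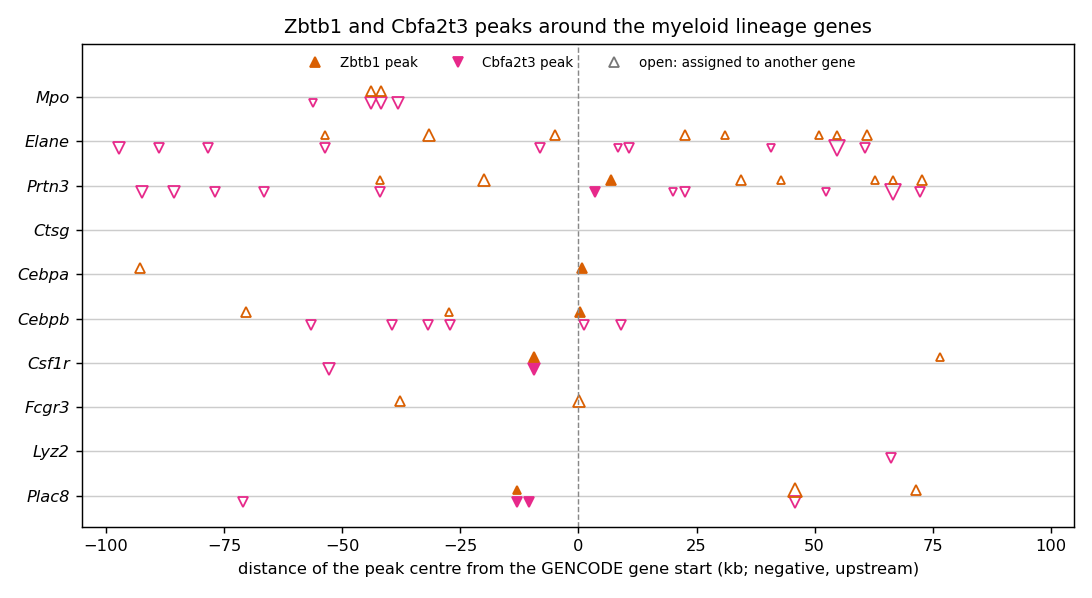
Peak centres of Zbtb1 (upward triangles) and Cbfa2t3 (downward triangles) within 100 kb of the start of each of the 10 genes, in kb from the start along the gene's direction, with larger symbols for higher scores and open symbols for peaks assigned to another gene. Filled symbols of both factors coincide at *Csf1r* and at *Plac8*.

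The other myeloid genes examined were 52 in 5 lists, of which 30 were in the fit. By limma, 0 of the 30 were higher than sgControl in the 4 comparisons, where 0.00866% (sgLmo2), 1.85% (sgZbtb1), 0.0260% (sgCbfa2t2) and 0.130% (sgCbfa2t3) of all genes were. For sgLmo2 1 was lower, *Irf8*, which was the only gene called lower of all 11554 (0.00866%). For sgZbtb1 3 were lower (2.94% of all genes), for sgCbfa2t2 0 (0.121%) and for sgCbfa2t3 0 (0.407%). The medians of the 30 log2 differences were, in the same order, -0.03, -0.02, 0.03 and -0.14.

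Of the 9 myeloid transcription factors 6 were in the fit. The highest were *Runx1*, the core-binding factor needed for blood cell formation (275 CPM over all libraries), *Spi1*, which encodes PU.1 (119 CPM), and *Irf8*, a factor of monocytes and dendritic cells (116 CPM). *Irf8* stood at 111, 120.4 and 116 CPM in sgControl and at 50.9, 58.2 and 61.9 CPM in the libraries labelled sgLmo2. It was lower there by 1.01 on the log2 scale (SE 0.13, limma adjusted p = 1.2e-06). The libraries labelled sgZbtb1 had 137, 164 and 158 CPM, above sgControl without overlap, as for 10.1% of all genes. The log2 difference was 0.40 (limma adjusted p = 0.0585, not called). The libraries labelled sgZbtb1 differed from those labelled sgLmo2 by 1.41 (limma adjusted p = 6.47e-13). *Runx1* stood at 334, 324 and 303 CPM in sgControl and at 178, 186 and 175 CPM in the libraries labelled sgZbtb1, a log2 difference of -0.83 ± 0.10 (SE; limma adjusted p = 3.28e-09). *Spi1* was called in no comparison with sgControl. Each of these factors was more abundant than *Cebpa* in every library.

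Of 6 cytokine receptors 5 were in the fit, led by the GM-CSF receptor chains *Csf2rb* (50.6 CPM) and *Csf2ra* (11.7 CPM) and by *Csf2rb2* (6.41 CPM). None was called against sgControl by limma, and the lowest adjusted p was 0.0849 (*Csf2ra* for sgZbtb1, log2 difference -1.03). *Il6ra*, a chain of the interleukin 6 receptor, was called by the F test (adjusted p = 0.00618), with 7 reads in all in the libraries labelled sgLmo2 and 61 in those labelled sgZbtb1. *Csf3r*, the G-CSF receptor of granulocytes, had no read in any library.

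Of 5 Fc receptors and adaptors 3 were in the fit: *Fcer1g* (278 CPM), which codes for the signalling chain that FcγRIII needs, *Tyrobp* (159.6 CPM) and *Fcgr2b* (11.8 CPM). *Tyrobp*, the adaptor DAP12, stood at 152, 197 and 194 CPM in sgControl and at 132, 104 and 116 CPM in the libraries labelled sgZbtb1, a log2 difference of -0.61 ± 0.12 (SE; limma adjusted p = 0.000431). *Fcer1g* was called in no comparison with sgControl.

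Of 17 other granule and secreted proteins 5 were in the fit, and 11 had no read in any library, among them *Ltf*, *Camp*, *Ngp*, *Lcn2*, *S100a8* and *S100a9*, which mark later granulocytes. The 3 highest are not restricted to granulocytes: *Calr*, a chaperone of the endoplasmic reticulum (757 CPM), *Srgn*, the proteoglycan core of granules (404 CPM), and *Serpinb1a*, an inhibitor of granule proteases (84.7 CPM). *Srgn* was called by the F test (adjusted p = 0.0245) and in no comparison with sgControl.

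Of 15 surface and phagocyte genes 11 were in the fit, led by *Ncf1*, a subunit of the phagocyte oxidase (146 CPM), *Adgre1*, which encodes F4/80 (108 CPM), and the lectin receptor *Clec12a* (90.7 CPM). *Adgre1* stood at 82.5, 115 and 134 CPM in sgControl and at 42.5, 63.6 and 37.8 CPM in the libraries labelled sgZbtb1, where it was lower by 1.19 on the log2 scale (SE 0.16, limma adjusted p = 5.47e-08). The libraries labelled sgLmo2 had 152, 208 and 158 CPM, above sgControl without overlap (log2 difference 0.65, limma adjusted p = 0.117, not called; 5.62% of all genes were higher without overlap), and those labelled sgZbtb1 differed from them by -1.85 (limma adjusted p = 1.97e-14). *Cd14* and *Ly6g* had no read in any library.

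**Figure D5:**
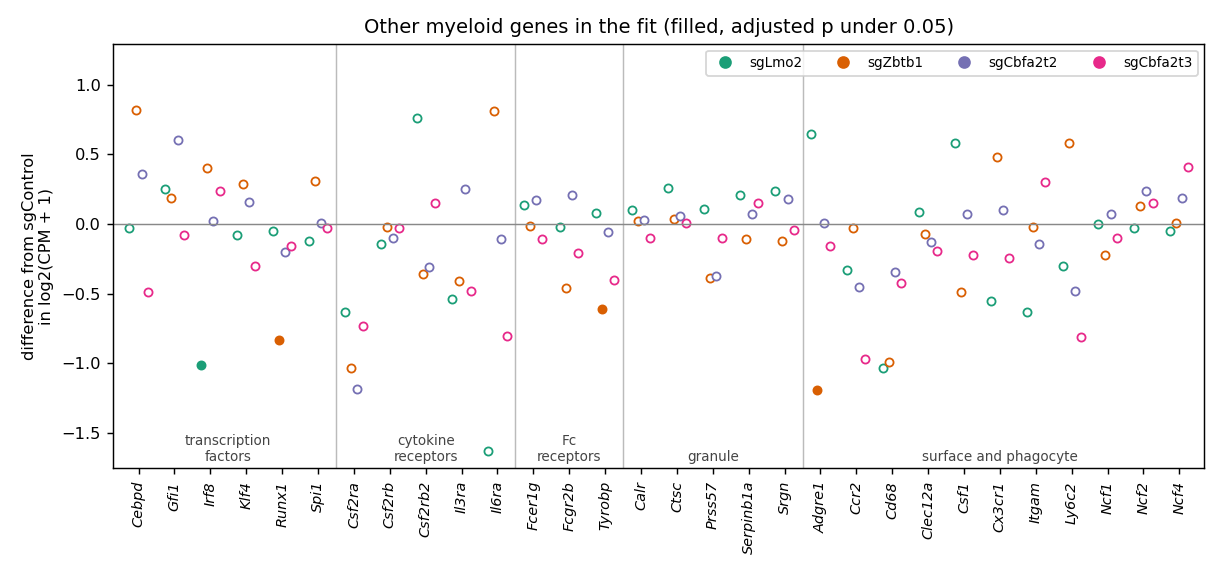
Differences from sgControl in log2(CPM + 1) of the 30 other myeloid genes in the fit, grouped by list, with 1 point for each targeted gene and filled points at an adjusted p under 0.05. The 4 filled points, *Irf8* for sgLmo2 and *Runx1*, *Tyrobp* and *Adgre1* for sgZbtb1, all lie below 0.

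The pattern of *Plac8*, *Fcgr3* and *Cebpb* over the 15 libraries was compared with that of 7959 protein-coding genes with a mean above 10 CPM. The highest Pearson r of log2(CPM + 1) for *Plac8* were those of the ribosomal protein gene *Rps13* (0.848), *Mff* (0.841) and *Ndufs7* (0.839). For *Fcgr3* they were *Nrm* (0.859), *Per1* (0.801) and *Tmed4* (0.772), and for *Cebpb* they were *Cdk16* (0.839), *Celsr2* (0.755) and *Cdk13* (0.748). These values describe 15 libraries that share groups and depth. Each was picked as among the highest of 7959, and whether it exceeds that of unrelated genes was not tested.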

How the data were processed

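RNA libraries were QuantSeq FWD (3 per condition), and ChIP-seq was done on 2 replicates per factor with input. Per the paper's methods, the authors trimmed reads with fastp, mapped them to mm10 with STAR and scaled each library to 1000000 reads. Tool versions, the counter and its strand setting are not given in the sources used here. The deposited values, which the authors call TPM, are CPM: they sum to 1000000 per library and were not divided by length. At least 99.969% of the values above 0 in each library were whole reads within 0.05 read, and these reads served edgeR and DESeq2. A row without a gene identifier (1 read per library) was left out, and 18 columns of the authors' means and comparisons were not used. The deposited peak scores are HOMER scores, from Bowtie 1.1.1 alignments, findPeaks against input, the IDR procedure and a minimum of 15, with nearest genes assigned by the authors' annotation step.

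Genes with a mean above 1 CPM (11554) were fitted with limma 3.58.1 (R 4.3.3) on log2(CPM + 1), all 15 libraries together, with Benjamini-Hochberg adjustment over all genes and calls at an adjusted p under 0.05. The pseudocount of 1 shrinks the differences of low genes. Alternatives used a pseudocount of 0.1, other filters, median-of-ratios scaling, edgeR 4.0.16, DESeq2 1.42.0, a replicate block, the 6 libraries of a comparison alone, and each library left out. Genes to be named were all 10 members, other listed genes that were called or among the 3 highest of their list, and the 3 genes most alike in pattern. The members and lists were chosen with earlier results of these data known. Sequences were read from GRCm38 (RefSeq) at the peaks' mm10 positions, which all fell inside its chromosomes; gene models were GENCODE vM21, in which 55154 of 55421 identifiers were found. None is printed for *Csf1r*.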

Additional observations from a re-analysis of the deposited data

Results flagged for a closer look

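The libraries labelled sgLmo2 stood apart from those of other targeted genes in 3 contrasts of the 6 tested myeloid lineage genes, each by a limma test of the difference itself. Of all genes, 0.234% (sgCbfa2t2), 0.736% (sgCbfa2t3) and 5.06% (sgZbtb1) were called in the same contrasts with sgLmo2. *Mpo* was higher by 2.26 (log2) in the libraries labelled sgCbfa2t2 than in those labelled sgLmo2 (adjusted p = 0.0428), where the groups held 57 and 6 reads. It was higher by 2.14 in those labelled sgCbfa2t3 than in those labelled sgLmo2 (adjusted p = 0.0341), with 39 and 6 reads. *Cebpa* was higher by 1.38 in the libraries labelled sgZbtb1 than in those labelled sgLmo2 (adjusted p = 0.0171), with 89 and 28 reads. The 3 contrasts share the sgLmo2 libraries, and each call was lost without sgLmo2 replicate 2 (adjusted p of 0.0853 to 0.375) or replicate 3 (0.0956 to 0.24). Each was also lost with no filter. The first *Mpo* call was lost without sgCbfa2t2 replicate 1, and the second by edgeR (adjusted p = 0.0810) and without any sgCbfa2t3 library. That of *Cebpa* was lost without sgZbtb1 replicate 2. No test of outlying libraries was made in these groups of 3.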

How the results depend on the processing

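The count of called members was 0 under all alternatives for sgLmo2, sgZbtb1 and sgCbfa2t3 against sgControl. For sgCbfa2t2 it was 1 (*Plac8*) and became 0 with a pseudocount of 0.1 (adjusted p = 0.0598), with no filter (0.344), with median-of-ratios scaling (0.0728) and with the 6 libraries alone (0.0594), and leaving out a library gave 0 to 1. Over the 5 conditions, 2 members were called, 0 with no filter, 1 with a mean above 10 CPM (*Mpo* is then not fitted) and 1 to 2 with a library left out. *Mpo* was lost without sgLmo2 replicate 2 (adjusted p = 0.155) or 3 (0.0674), and *Plac8* without any sgControl library, sgZbtb1 replicate 2 or 3, or sgCbfa2t2 replicate 2 (0.0501 to 0.218). Of the pairs of targeted groups, 3 were called, 0 with no filter, 0 with a mean above 10 CPM (neither *Mpo* nor *Cebpa* is then fitted) and 0 to 3 with a library left out: 0 without sgLmo2 replicate 2 or 3 and 1 without sgCbfa2t3 replicate 2. Single calls were also lost by edgeR (*Mpo* between sgCbfa2t3 and sgLmo2, adjusted p = 0.0810) and without sgCbfa2t2 replicate 1, sgZbtb1 replicate 2 or any sgCbfa2t3 library. The alternatives for pairs were chosen after seeing the data. With no filter, 18602 genes in place of 11554 entered both the shared estimate of the spread and the adjustment, and the part of each was not tested. The calls over all genes were then 330 in place of 554 for sgZbtb1 and 0 in place of 17 for sgCbfa2t2. They were 24 in place of 62 for sgCbfa2t3 and 253 in place of 525 over the 5 conditions.

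Of 348 alternatives for single differences, 18 in 10 results changed sign, all with a library left out and none called. With a library left out, the log2 difference from sgControl of *Cebpb* ran from -0.14 to 0.06 for sgLmo2, -0.26 to 0.08 for sgZbtb1, -0.06 to 0.12 for sgCbfa2t2 and -0.25 to 0.31 for sgCbfa2t3. That of *Fcgr3* ran from -0.01 to 0.30 for sgZbtb1, -0.23 to 0.09 for sgCbfa2t2 and -0.11 to 0.20 for sgCbfa2t3. That of *Mpo* ran from -1.12 to 0.02 for sgZbtb1 and -0.21 to 0.79 for sgCbfa2t2, and that of *Prtn3* from -0.53 to 0.08 for sgZbtb1.

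Of the 10 genes, 5 had a peak, 3 within 10 kb of the start, and 9 when any peak within 100 kb counts. Deviations from the group means correlated by 0.0279 on average (-0.0072 to 0.0656) between libraries of the same replicate number. Between others they correlated by -0.0139 (-0.0608 to 0.032). The labels do not say whether the numbers pair the libraries. A replicate block left the counts of called members at 0, 0, 1 and 0 against sgControl, 2 over the conditions and 3 over the pairs. Over all genes it gave 14 calls in place of 2 for sgLmo2 and 709 in place of 554 for sgZbtb1. For sgCbfa2t2 it gave 36 in place of 17, for sgCbfa2t3 93 in place of 62, and over the 5 conditions 718 in place of 525. At 1705416 to 2095447 reads per library, a gene with fewer than 3 reads in a library cannot be told from absent, which limits *Elane*, *Ctsg*, *Lyz2* and *Csf1r*.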

Other observations

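Genes of other cell types were measured in the same libraries. Of 12 lymphoid progenitor genes 9 were in the fit, and 2 were lower in the libraries labelled sgZbtb1 than in sgControl by limma (2.94% of all genes were): *Kit*, the SCF receptor (log2 difference -1.14, adjusted p = 0.0205), and *Ptprc* (-0.28, adjusted p = 0.0393). *Il7r* (mean 159 CPM), the interleukin 7 receptor, and *Dntt* (86.4 CPM), the terminal transferase of lymphoid precursors, differed over the 5 conditions by the limma F test (adjusted p = 0.000550 and 6.07e-05), in which 4.54% of all genes were called. Of 6 dendritic cell genes 4 were in the fit, and *Bst2* (177 CPM, adjusted p = 0.0123) and *Tcf4* (166 CPM, adjusted p = 0.0256) differed in that limma test, while *Itgax* (5.64 CPM) did not and *Xcr1* had no read. Of the other stroma genes, *Fn1* and *Sparc* had means of 0.915 and 0.546 CPM, and of the erythroid genes *Klf1* had 0.588, *Itga2b* 0.382 and *Gata1* 0.189 CPM. Of 5 housekeeping genes, *Gapdh*, at a mean of 83.9 CPM, was lower in the libraries labelled sgZbtb1 (log2 difference -0.57, limma adjusted p = 0.0237). *B2m* (1410.4 CPM) differed over the 5 conditions (limma adjusted p = 0.0446). It was lower in the libraries labelled sgZbtb1 than in those labelled sgLmo2 (log2 difference -0.29, limma adjusted p = 0.00771). *Actb* (10357 CPM) and *Hprt* (180.1 CPM) were called in no comparison.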
